A study of Mus musculus with 12 samples.

Results

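The Dlk1-Dio3 domain is an imprinted stretch of mouse chromosome 12 that carries one of the largest groups of miRNA genes in the genome. It was described here in small RNA libraries of cardiac mitochondria from wild-type (WT) and db/db mice. The members were chosen by name alone, as every deposited row, of either arm, of 50 precursor stems: 64 rows among the 932 of the table belonged to 42 of those stems. The other 8 stems (miR-380, miR-539, miR-544, miR-654, miR-679, miR-758, miR-882 and miR-1197) had no row. Both arms were listed for 22 stems and 1 arm for 20. In the GRCm38.p6 annotation all 50 stems lie between Dlk1 and Dio3, so the name of the cluster held for each of them.

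The 12 libraries were made from total RNA of mitochondria isolated from heart, 6 from WT and 6 from db/db mice, a model of obesity with diabetes caused by a defective leptin receptor. The labels give no age, sex, strain background or treatment. They number the samples 1 to 6 in each genotype and name no animal; the spread that p-values rest on is that of these samples and may be technical. The series title names Ago2, the protein that holds mature miRNAs, and the comparison asks which miRNAs of the mitochondrial preparations differ in the diabetic heart.

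Imprinted genes are transcribed from one parental copy. In this domain the protein-coding genes Dlk1, Rtl1 and Dio3 are transcribed from the paternal chromosome, and the noncoding RNAs Meg3 (also called Gtl2), the transcripts antisense to Rtl1, Rian and Mirg from the maternal one. The miRNAs lie in or between those noncoding transcripts, which are thought to be made as one long precursor running from Meg3 towards Dio3. A precursor hairpin yields a 5p and a 3p arm, of which Argonaute usually keeps one and the other is lost. The miRNAs antisense to Rtl1 match its messenger RNA fully and cut it. The cluster is known for high levels in embryo, placenta and brain and for low levels in most adult tissues, and in muscle its transcription is driven in part by MEF2 factors.

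The mature sequences of the members that carry the results are shown 5′ to 3′, as RefSeq gives them with the GRCm38.p6 table, with bases 2 to 8, the seed that pairs with targets, in capitals. RefSeq gave a sequence for 61 of the 64 rows. The arms of miR-127 and miR-434, both antisense to Rtl1, head the list because they hold the highest level of the cluster and its smallest p-values.
miR-127-3p: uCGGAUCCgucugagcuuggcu
miR-127-5p: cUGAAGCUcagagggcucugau
miR-434-5p: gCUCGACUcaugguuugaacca
miR-434-3p: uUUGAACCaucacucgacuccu

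The most abundant members of the downstream group, from miR-379 to miR-410, are shown next. miR-379-3p and miR-411-3p are printed with them because they had the only seed that members shared, of the 61 with a sequence, and the 5p arms of the same hairpins differed from each other in their seeds.
miR-379-5p: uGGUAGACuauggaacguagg
miR-379-3p: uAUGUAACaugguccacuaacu
miR-411-5p: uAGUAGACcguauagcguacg
miR-411-3p: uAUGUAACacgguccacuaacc
miR-541-5p: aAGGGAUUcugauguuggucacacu
miR-329-5p: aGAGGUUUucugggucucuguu

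One pair of rows could not be fully separated by sequence. miR-299b-5p, whose precursor is the only one of the 50 on the minus strand, is contained whole in miR-299a-5p. A read without the first base of miR-299a-5p can therefore match either row. The rows were not counted alike, with 62 reads for miR-299a-5p and 17 for miR-299b-5p, and how reads matching either were assigned is not known.
miR-299a-5p: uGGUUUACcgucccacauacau
miR-299b-5p: gGUUUACCgucccacauacau

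The cluster held a small share of the reads of these preparations, and that share did not differ between genotypes by more than the spread between libraries. In bulk libraries fewer cells of a type and less of a miRNA per cell cannot be told apart. Whether the cluster's reads came from mitochondria or from other material in the preparations was not tested. The values are RPM, reads scaled to a library sum of 1000000. Library depth ran from 412749 reads in db/db 6 to 1382046 reads in db/db 5, so 1 read was worth 0.724 to 2.42 RPM and a listed 0 leaves room for 3 reads (2.17 to 7.27 RPM). Such limits, and the intervals below, hold counting error alone, as reads copied by PCR are not separate molecules. WT 4 and db/db 6, the libraries with the fewest reads of their genotypes, also lay farthest on average from the other libraries, and values without them are given where they matter. All 4 heart muscle miRNAs of a marker list (miR-1a-3p, miR-133a-3p, miR-208a-3p and miR-499-5p) were present, at a sum of 337987 to 439537 RPM. That sum averaged 388205 ± 18402 RPM in WT against 396437 ± 34635 RPM in db/db libraries (SD, n = 6 per genotype). Most of it was miR-133a-3p (323867 and 341153 RPM). On that list miR-1a-3p (62696 and 53914 RPM), miR-499-5p (1573 and 1341 RPM) and miR-208a-3p (68.6 and 29.6 RPM) had the lower mean in db/db. miR-206-3p, a skeletal muscle miRNA, had no row. The 7 neural miRNAs of a marker list all had a row and summed to 624 to 763 RPM in WT and 752 to 984 RPM in db/db libraries. Most of that was miR-128-3p, and the other 6 summed to 63.2 to 135.97 RPM in WT and 66.0 to 172 RPM in db/db libraries. Of those 6, miR-9-5p averaged 71.1 RPM in WT against 91.3 RPM in db/db libraries, and miR-124-3p 6.24 against 14.2 RPM. The means of miR-9-3p were 12.6 and 5.90 RPM and those of miR-138-5p 7.66 and 5.49 RPM. miR-219a-5p averaged 2.70 RPM in WT and was at 0 in every db/db library. miR-137-3p averaged 1.74 RPM in WT against 0.633 RPM in db/db libraries. The 6 miRNAs of fibroblasts and smooth muscle summed to 44527 ± 6684 RPM in WT against 33773 ± 5876 RPM in db/db libraries (SD, n = 6 per genotype). Most of that sum was miR-143-3p (29619 RPM in WT, 21295 RPM in db/db). On the same list miR-214-3p (456 and 621 RPM) and miR-199a-3p (2482 and 2583 RPM) had the higher mean in db/db. The others of the list had the lower mean there. The 3 red cell miRNAs summed to 16630 ± 3834 RPM in WT against 23592 ± 4807 RPM in db/db, the 3 leukocyte miRNAs to 3967 ± 740 and 4436 ± 1389 RPM, and the 2 endothelial miRNAs to 24049 ± 4373 and 19798 ± 4085 RPM (SD, n = 6 per genotype). Most of the red cell sum was miR-486a-5p (15389 RPM in WT, 21760 RPM in db/db). On that list miR-451a averaged 1234 and 1822 RPM and miR-144-3p 6.92 and 10.5 RPM. The leukocyte sum was mostly miR-150-5p (3570 and 4196 RPM). On that list miR-223-3p (383 and 232 RPM) and miR-142a-3p (14.6 and 7.64 RPM) had the lower mean in db/db. The part of any of these lists in the results below was not tested.

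Summed over its 64 rows, the cluster took 0.0588% of the reads in the lowest WT library, 0.0750% at the median and 0.0800% in the highest. The db/db libraries ran from 0.0591% through a median of 0.0775% to 0.1005%. The genotypes overlapped, and only db/db 6 stood above the WT range by more than a small margin (0.1005%, 95% Wilson interval 0.0913 to 0.1107%). The means were 0.0712% ± 0.0092 in WT against 0.0773% ± 0.0149 in db/db libraries (SD, n = 6 per genotype), a difference of 0.0062 percentage points against a pooled SD between libraries of 0.0124. Without WT 4 and db/db 6 the difference was -0.0006 percentage points. Each value rested on 334 to 817 reads, and 24 to 44 members were above 0 in a library.

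The 2 large groups of the cluster contributed similar amounts. The Rtl1 antisense group (8 stems, 13 rows, from miR-337 to miR-136; 5 of the stems lie opposite an exon of Rtl1) made up 46.7% of the cluster's RPM, with 334 ± 61.5 RPM in WT against 359 ± 120 RPM in db/db libraries (SD, n = 6 per genotype). The Mirg group (miR-379 to miR-410, 30 stems with 45 rows) made up 52.2%, with 372 ± 46.0 RPM in WT against 404 ± 59.0 RPM in db/db libraries. In the annotation only 12 of its stems lie within the Mirg gene. The stems near Rian and Meg3 (miR-341, miR-370, miR-673 and miR-770, with 6 rows) made up 1.10%, with 6.15 ± 6.03 RPM in WT against 10.2 ± 7.58 RPM in db/db libraries. In db/db 6 the Rtl1 antisense group reached 584 RPM, while the Mirg group stood at 414 RPM, inside the range of the other libraries.

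**Figure D1:**
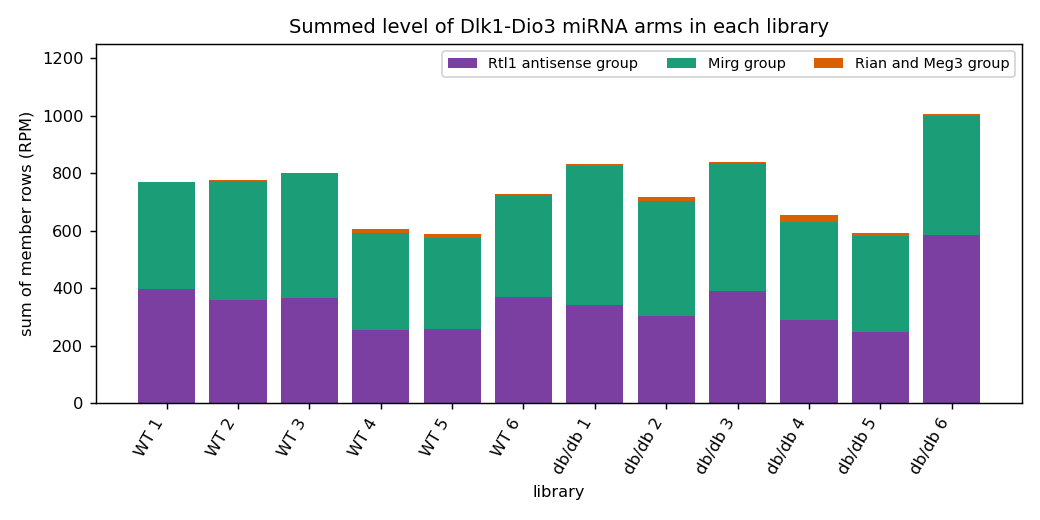
Summed RPM of the member rows in each library, stacked by group, with libraries on the horizontal axis and the sum in RPM on the vertical axis. WT sums run from 588 to 800 RPM and db/db sums from 591 to 1005 RPM, and in the highest bar, db/db 6, the Rtl1 antisense group makes up 584 RPM.

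Within the cluster a few arms carried most of the reads. miR-127-3p, which is antisense to Rtl1 and cuts its messenger RNA, held 29.1% of the cluster's RPM and ranked 119 of the 932 rows by mean level. The 3 highest rows, miR-127-3p, miR-379-5p and miR-541-5p, held 49.7%, and the 15 highest held 83.3%. Only 6 rows were above 0 in all 12 libraries: miR-127-3p, miR-379-5p, miR-541-5p, miR-411-5p, miR-329-5p and miR-434-5p. A further 12 were above 0 in 9 to 11 libraries, 13 in 6 to 8, 23 in 2 to 5 and 6 in 1 library. The last 4 rows (miR-770-3p, miR-376a-3p, miR-300-5p and miR-377-5p) were at 0 in every library, which allows up to 3 reads in each. The precursors are known to share long transcripts, but neighbours along the domain had very unequal levels: the precursors of miR-379, miR-411 and miR-299a follow each other, and the 5p arm of the last averaged 6.74 RPM in WT against 5.36 RPM in db/db libraries.

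**Figure D2:**
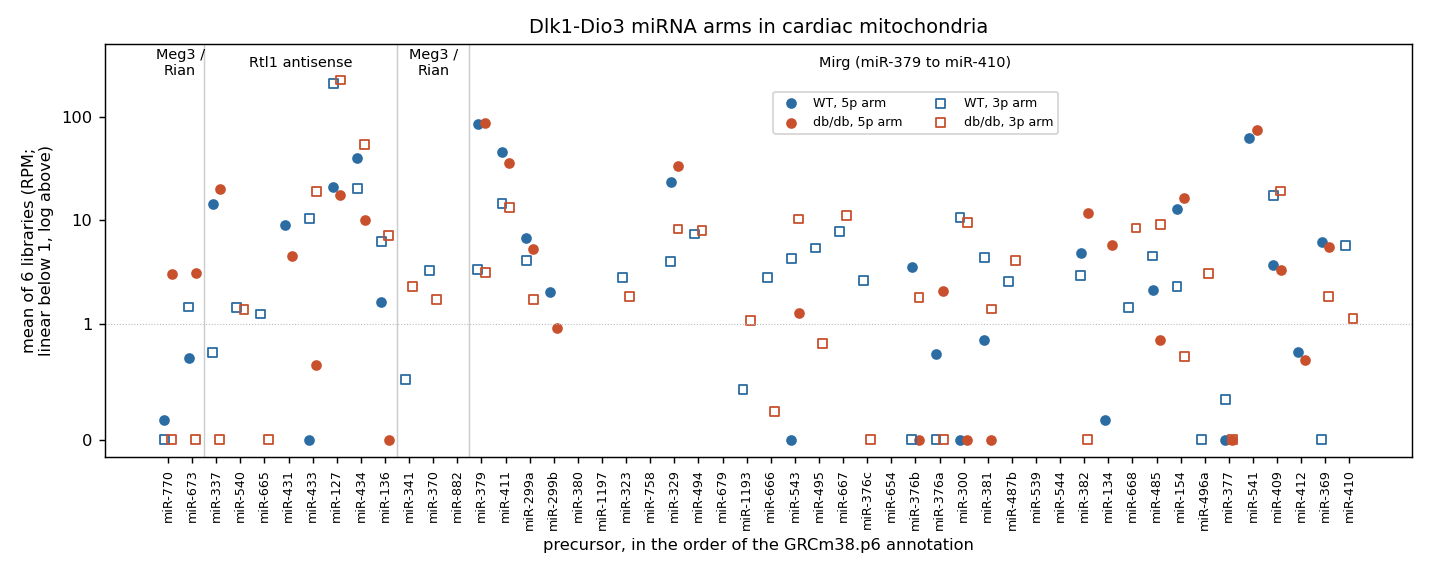
Mean RPM of each member arm in 6 WT and 6 db/db libraries (vertical axis, linear below 1 and log above), with the 50 precursors in the order of the GRCm38.p6 annotation on the horizontal axis; filled circles are 5p arms, open squares 3p arms. The highest points belong to miR-127-3p (208 RPM in WT, 225 RPM in db/db), miR-379-5p and miR-541-5p, and the precursors with no point had no row.

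The comparison of db/db with WT was made for the 646 rows that averaged 1 RPM or more over the 12 libraries. Of the 64 member rows 48 passed that filter, 12 were above 0 but below it and 4 were at 0; the lowest tested member had a mean of 1.33 RPM and the highest untested one 0.917 RPM. No member of the 48 passed the threshold in limma (adjusted p under 0.05), where the share of all tested rows that passed was 0.155%, 1 row of 646. At an unadjusted p under 0.05 limma had 4 of the 48, 3 higher and 1 lower in db/db libraries. Over all rows 8.98% reached that level, 4.33% higher and 4.64% lower. On reads recovered from the RPM, edgeR called 0 of the 48 members (0.464% of all rows) and had 7 at an unadjusted p under 0.05 (24.6% of all rows). DESeq2 also called 0, with an adjusted p missing for 47 of the 48 (8.97% of the 145 rows with one were called), and had 3 at an unadjusted p under 0.05 (7.21% of all rows).

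A log2 difference is the difference of group means of log2(RPM + 1). In low or variable rows its size, and also its sign, need not match the ratio of mean RPM. Of the 48 tested members 28 had positive and 20 negative values, with a median of 0.09. Over all 646 rows 47.7% were positive and the median was -0.04. Of the 9 tested rows of the Rtl1 antisense group 8 were positive (median 0.15), of the 35 of the Mirg group 17 (median -0.07) and of the 4 near Rian and Meg3 3 (median 0.66). Among those 8, miR-127-5p (20.8 RPM in WT, 17.4 RPM in db/db), miR-431-5p (8.97 and 4.53 RPM) and miR-540-3p (1.46 and 1.39 RPM) had the lower mean RPM in db/db. The others of the 8 had the higher mean there. The tested members were lower in level than the rows at large (median 5.39 against 8.13 RPM), and 34 of them averaged under 10 RPM. For 11 of those 34, 1 library supplied 50% or more of the reads.

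**Figure D3:**
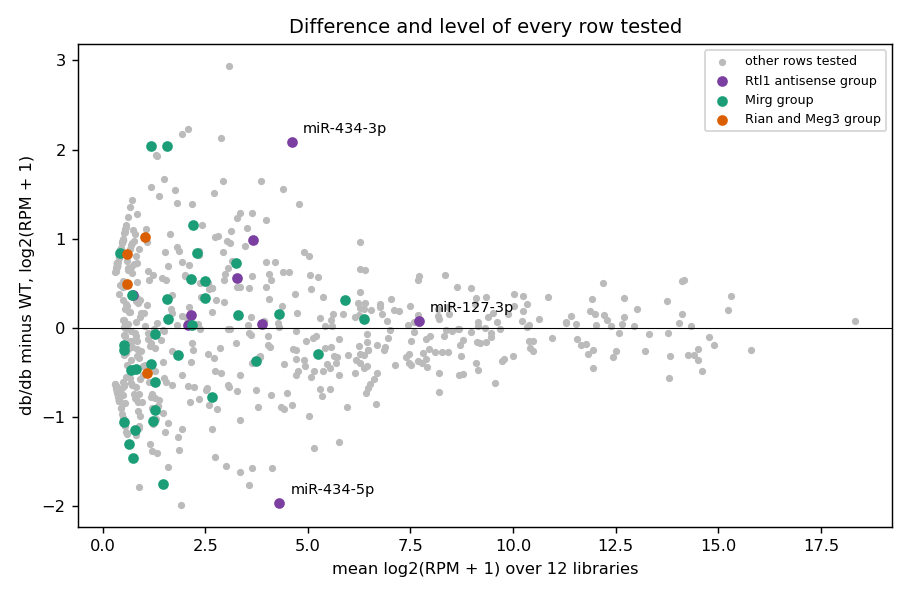
Log2 difference (db/db minus WT, vertical axis) against mean log2(RPM + 1) (horizontal axis) for the 646 rows tested, with members coloured by group and other rows in grey. The arms of miR-434 stand at 2.08 and -1.96, and miR-127-3p lies near the zero line at 0.07.

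In the Rtl1 antisense group miR-127-3p showed no difference beyond the spread between libraries. It ran from 139 through a median of 198 to 293 RPM in WT and from 155 through 208 to 402 RPM in db/db libraries. The groups overlapped: the highest value was that of db/db 6, and the other 5 db/db libraries, up to 219 RPM, lay inside the WT range. The means were 208 ± 54.3 RPM and 225 ± 91.2 RPM (SD, n = 6 per genotype), a log2 difference of 0.07 ± 0.25 (SE; limma adjusted p = 0.922). Its other arm, miR-127-5p, averaged 20.8 ± 12.8 RPM in WT against 17.4 ± 11.4 RPM in db/db libraries, with a log2 difference of 0.05 ± 0.75 (SE; limma adjusted p = 0.987), and its sign changed with the setting. The 3p arm was thus the higher one in both genotypes.

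The arms of miR-434, the next precursor after miR-127, had the smallest p-values of the cluster, with opposite signs. miR-434-5p ran from 23.6 through a median of 35.8 to 56.8 RPM in WT and from 4.14 through 9.66 to 18.1 RPM in db/db libraries. All 6 db/db libraries lay below all 6 WT libraries, and it was the only one of the 48 tested members whose groups did not overlap; of all 646 rows 0.619% were separated in that direction and 0.31% in the other. The means were 39.9 ± 13.8 and 10.1 ± 5.34 RPM (SD, n = 6 per genotype). The log2 difference was -1.96 ± 0.58 (SE; limma adjusted p = 0.109), which did not pass the threshold.

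miR-434-3p ran from 0 through a median of 20.6 to 44.9 RPM in WT and from 23.9 through 47.9 to 104 RPM in db/db libraries. Here the groups overlapped: WT 3, WT 4 and WT 5 reached the range of the db/db libraries, and WT 1 had no read. The means were 20.1 ± 17.1 and 54.2 ± 26.5 RPM (SD, n = 6 per genotype), with a log2 difference of 2.08 ± 0.63 (SE; limma adjusted p = 0.109). edgeR gave 1.45 for the 3p and -1.92 for the 5p arm, with an adjusted p of 0.135 for each. DESeq2 gave 1.48 and -1.92 with the adjusted p missing. The limma call for miR-434-3p was gained without WT 3 (adjusted p = 0.0469) and with the libraries numbered 1 to 3 and 4 to 6 as a factor (adjusted p = 0.0477, where 1.55% of all rows were called, 0.619% higher); over the fits that left out 1 library its adjusted p ran from 0.0469 to 0.393.

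The sum of both arms differed by less than the spread between libraries, 60.1 ± 16.8 RPM in WT against 64.3 ± 25.9 RPM in db/db libraries (SD, n = 6 per genotype). In WT libraries 1 to 6 the reads were 37, 36, 31, 13, 30 and 29 for the 5p arm and 0, 10, 36, 14, 30 and 3 for the 3p arm. In db/db libraries 1 to 6 they were 7, 3, 14, 11, 7 and 4 for the 5p arm and 34, 75, 43, 38, 33 and 19 for the 3p arm. The 3p arm outnumbered the 5p arm in all 6 db/db libraries, whereas in WT the arms were near balance in 3 libraries and the 5p arm led in the other 3.

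The share of the 5p arm among miR-434 reads ran from 46.3% through a median of 64.1% to 100% in WT and from 3.85% through 17.4% to 24.6% in db/db libraries. The nearest libraries were WT 3 at 46.3% (95% Wilson interval 34.9 to 58.1%) and db/db 3 at 24.6% (15.2 to 37.1%). The interval of WT 3 overlapped those of 3 of the 6 db/db libraries and the interval of WT 4, which had the fewest miR-434 reads in WT (30.7 to 66.0%), those of 5; the other 4 WT libraries overlapped none. As a log2 ratio of 5p to 3p, each with 1 RPM added, the arms stood at 1.71 ± 2.39 in WT against -2.33 ± 1.02 in db/db libraries (SD, n = 6 per genotype). The difference was -4.04 ± 0.99 (SE; limma adjusted p = 0.0978), the smallest limma p of the 142 stems of the table with both arms tested. It did not pass the threshold, which 0.0% of the 142 stems passed; 7.75% had an unadjusted p under 0.05. Adding 10 RPM to each arm damps ratios that rest on few reads. The difference was then -2.54 and passed (limma adjusted p = 0.00157). When 0.1 RPM was added instead, no stem passed, and the smallest limma adjusted p of the 142 stems was 0.403. Whether the arm ratio passed thus depended on the amount added. The opposite signs of the arms were known when this ratio was chosen, and it uses the same libraries, so it is not independent evidence of them.

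The numbers 1 to 3 and 4 to 6 were looked at apart because 10 rows in place of 1 were called over the table with these sets as a factor. miR-434-5p averaged 50.7 ± 10.4 RPM in WT against 10.6 ± 7.05 RPM in db/db libraries 1 to 3, and 29.2 ± 4.97 and 9.66 ± 4.58 RPM in libraries 4 to 6 (SD, n = 3 per set and genotype). miR-434-3p averaged 20.2 ± 22.8 and 68.7 ± 30.6 RPM in libraries 1 to 3, and 19.98 ± 14.6 and 39.7 ± 13.8 RPM in libraries 4 to 6. The difference of the arm ratio was -5.17 in numbers 1 to 3 (limma adjusted p = 0.470) and -2.91 in numbers 4 to 6 (limma adjusted p = 0.731). Within the sets limma gave adjusted p of 0.220 and 0.770 for miR-434-5p and 0.0575 and 0.770 for miR-434-3p. Since the miR-434-5p levels and the 5p shares of the genotypes do not overlap, any split of these libraries keeps their direction.

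The arms of miR-434 share stretches of sequence. A run of 9 bases, UUUGAACCA, opens the 3p arm and closes the 5p arm, and a run of 8, CUCGACUC, stands at base 2 of the 5p and base 13 of the 3p arm. Both runs are in capitals here, to show that their order is swapped.
miR-434-5p: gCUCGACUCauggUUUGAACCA
miR-434-3p: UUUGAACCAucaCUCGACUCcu
Whether the authors' mapping assigned short reads to either arm was not tested.

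**Figure D4:**
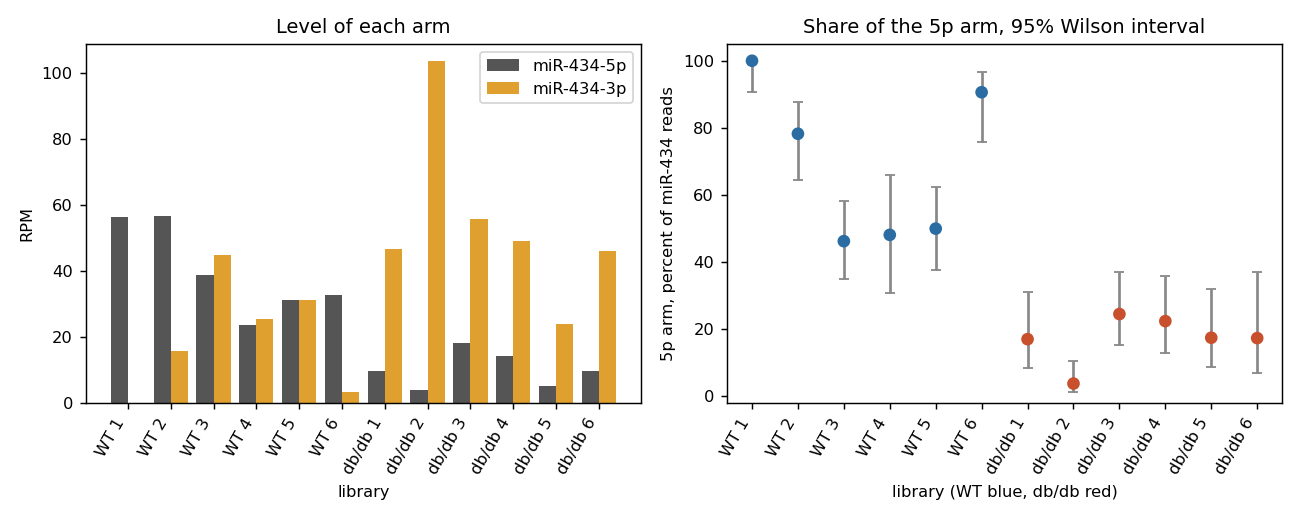
Left, RPM of miR-434-5p and miR-434-3p in each library; right, the share of the 5p arm among miR-434 reads in percent with 95% Wilson intervals (WT blue, db/db red). The WT shares run from 46.3 to 100% and the db/db shares from 3.85 to 24.6%, with no overlap of the points.

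The other 9 member stems with both arms tested gave limma adjusted p of 0.846 to 0.997 for the arm ratio. Among those 9, the higher arm by mean level over the 12 libraries was 5p for miR-154, miR-299a, miR-329, miR-379, miR-382 and miR-411, and 3p for miR-127, miR-409 and miR-485. The most one-sided was miR-379, with a log2 ratio of 5p to 3p of 4.95 ± 1.76 in WT against 5.45 ± 1.90 in db/db libraries (SD, n = 6 per genotype), followed by miR-127 at -3.82 ± 1.89 and -3.85 ± 1.15. These ratios are limited by the few reads of the lower arm.

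The remaining named rows of the Rtl1 antisense group were low and variable. miR-337-5p averaged 14.5 ± 11.7 RPM in WT against 19.9 ± 9.98 RPM in db/db libraries (SD, n = 6 per genotype), a log2 difference of 0.99 ± 0.79 (SE; limma adjusted p = 0.717). miR-433-3p, which has been studied in cardiac fibrosis, averaged 10.5 ± 8.06 and 18.9 ± 18.3 RPM, a log2 difference of 0.56 ± 0.88 (SE; limma adjusted p = 0.793), with the highest value, 50.9 RPM, in db/db 6. Their other arms were seen in 1 library each, miR-337-3p with 4 reads in WT 6 and miR-433-5p with 3 reads in db/db 4. Among the unnamed rows, miR-431-5p averaged 8.97 and 4.53 RPM and miR-136-3p 6.27 and 7.09 RPM in WT and db/db libraries.

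In the Mirg group the main arms differed by less than their errors. miR-379-5p, from the precursor that opens the group, ran from 48.8 through a median of 74.6 to 125 RPM in WT and from 67.7 through 83.4 to 119 RPM in db/db libraries. Every db/db library lay inside the WT range, and the log2 difference was 0.10 ± 0.33 (SE; limma adjusted p = 0.922). miR-541-5p, studied in cardiac hypertrophy, ran from 28.0 through 53.4 to 135.76 RPM in WT and from 36.3 through 71.1 to 125 RPM in db/db libraries, again with every db/db value inside the WT range. Its log2 difference was 0.32 ± 0.40 (SE; limma adjusted p = 0.733).

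miR-411-5p ran from 16.8 through 45.5 to 71.1 RPM in WT and from 17.0 through 40.0 to 50.6 RPM in db/db libraries, with a log2 difference of -0.29 ± 0.45 (SE; limma adjusted p = 0.791). miR-329-5p ran from 1.81 through 25.4 to 41.1 RPM in WT and from 2.89 through 25.5 to 107 RPM in db/db libraries. Its medians were nearly equal, its highest value came from db/db 1, and its log2 difference was 0.15 ± 0.67 (SE; limma adjusted p = 0.943). The order of these levels was loose: miR-379-5p and miR-541-5p overlapped in range in both genotypes, as did miR-541-5p and miR-411-5p.

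The lower named rows of the group had wider errors still. miR-409-3p, known from work on angiogenesis, averaged 17.4 ± 11.9 RPM in WT against 19.2 ± 17.2 RPM in db/db libraries, miR-154-5p, studied in fibrosis, 12.9 ± 17.5 and 16.6 ± 13.3 RPM, and miR-411-3p 14.6 ± 13.2 and 13.3 ± 7.54 RPM (SD, n = 6 per genotype). miR-300-3p averaged 10.6 ± 9.64 and 9.58 ± 16.8 RPM and miR-667-3p 7.86 ± 8.97 and 11.1 ± 8.90 RPM. Their limma log2 differences lay between -0.77 ± 0.97 for miR-300-3p and 0.73 ± 0.88 for miR-154-5p (SE), with adjusted p of 0.733 to 0.962. Of the other arms, miR-329-3p averaged 4.03 and 8.27 RPM, miR-409-5p 3.70 and 3.36 RPM, miR-379-3p 3.40 and 3.13 RPM and miR-154-3p 2.29 and 0.724 RPM in WT and db/db libraries. At these levels a mean rests on 6 to 37 reads per genotype.

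**Figure D5:**
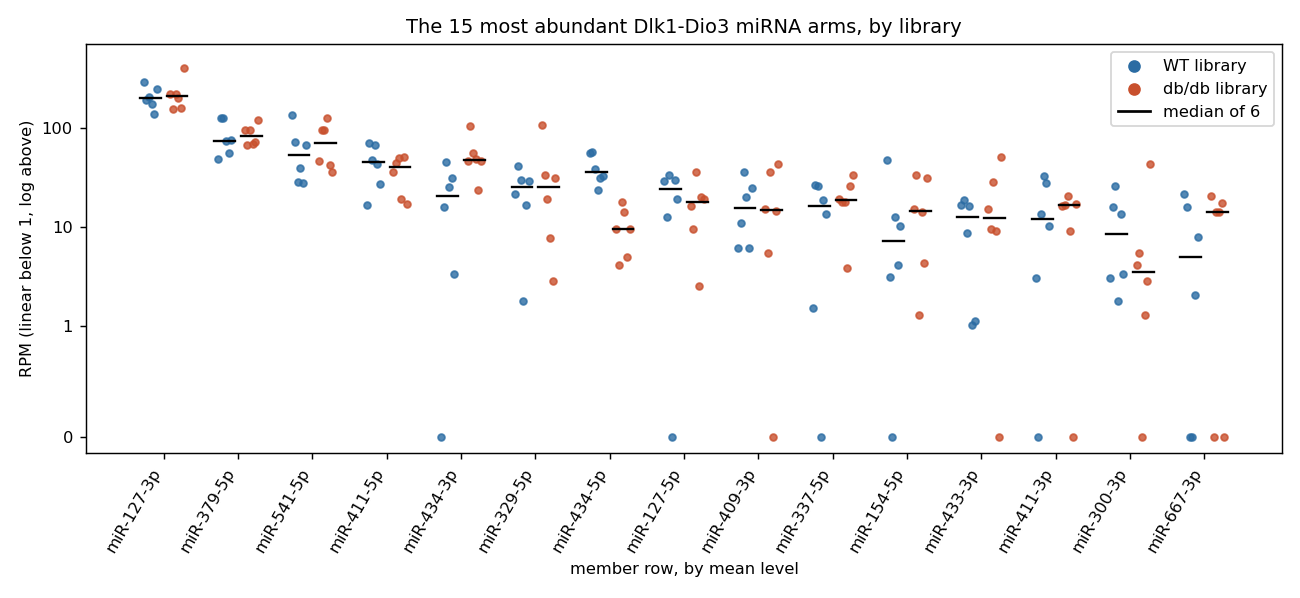
RPM of the 15 most abundant member rows in every library (vertical axis, linear below 1 and log above), ordered by mean level on the horizontal axis, with WT and db/db libraries as points and the median of each genotype as a bar. The groups overlap for every row but miR-434-5p, whose 6 db/db points lie between 4.14 and 18.1 RPM, below the WT points.

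Members outside the naming rule, chosen after their values were seen, included the other 2 with an unadjusted limma p under 0.05, both from neighbouring precursors in exons of Mirg. miR-134-5p, known for its role in neuronal dendrites, was above 0 in 1 WT library (1 read) and in 5 db/db libraries (35 reads in all), with means of 0.173 ± 0.424 and 5.81 ± 5.89 RPM (SD, n = 6 per genotype). Of its 36 reads 21 came from db/db 5. Its log2 difference was 2.04 ± 0.91 (SE; limma adjusted p = 0.504). miR-668-3p was likewise above 0 in 1 WT and 5 db/db libraries, with 7 and 45 reads, means of 1.46 ± 3.57 and 8.46 ± 8.81 RPM and a log2 difference of 2.04 ± 1.00 (SE; limma adjusted p = 0.543). The one WT library with reads stood at 1.04 RPM for miR-134-5p and at 8.74 RPM for miR-668-3p.

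Of the 60 members above 0 in any library, 9 were seen only in WT and 5 only in db/db libraries, all at low counts. Of the 847 rows of the table above 0 in any library, 18.3% were seen only in WT and 15.6% only in db/db libraries. The WT set was led by miR-376b-5p with 17 reads in 3 libraries, miR-382-3p with 15 reads in 3 and miR-376c-3p with 13 reads in 2; the miR-376 precursors are close copies of each other, so how reads fell among them is uncertain. The db/db set was led by miR-496a-3p with 14 reads, 13 of them in db/db 1. It also held miR-376b-3p, the other arm of miR-376b, with 11 reads in 2 libraries. The other arm of miR-382, miR-382-5p, had 22 reads in WT and 58 reads in db/db libraries. miR-495-3p and miR-410-3p, which have been studied in cardiomyocyte proliferation, had 24 and 25 reads in WT and 3 and 7 reads in db/db libraries. Their log2 differences were -1.75 ± 0.96 and -1.04 ± 0.95 (SE; limma adjusted p = 0.695 and 0.717), and neither reached an unadjusted p under 0.05. miR-494-3p, another member studied in heart, averaged 7.39 ± 7.10 RPM in WT against 8.03 ± 6.88 RPM in db/db libraries (SD, n = 6 per genotype).

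The rows near Rian and Meg3 were all scarce. miR-370-3p, in an intron of Rian, averaged 3.28 ± 4.98 RPM in WT against 1.72 ± 3.13 RPM in db/db libraries (SD, n = 6 per genotype), and miR-341-3p, in the same gene, 0.519 and 2.30 RPM. miR-770-5p, in an exon of Meg3, averaged 0.173 and 3.07 RPM, but 12 of its 17 reads came from db/db 4. The largest log2 difference of the 4 tested rows was 1.02 ± 0.88 for miR-673-5p (SE; limma adjusted p = 0.717).

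Precursors of the domain that the rule did not name gave a few further rows. Of 11 such stems only miR-1247 and miR-3072 had rows, 3 in all. miR-1247-5p, from an exon of Dio3os at the far end of the domain, averaged 10.8 ± 10.3 RPM in WT against 13.1 ± 8.23 RPM in db/db libraries (SD, n = 6 per genotype), with a log2 difference of 0.95 ± 0.90 (SE; limma adjusted p = 0.717). miR-3072-3p averaged 0.763 and 2.53 RPM, and miR-1247-3p was at 0 in every library.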

How the data were processed

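Small RNA of 12 samples of cardiac mitochondria was analysed from 1 table. The authors deposited values named TPM. Each column sums to 1000000 and all values are whole multiples of 1 read (100% within 0.01 of a read), so these deposited values are RPM. GRCm39 is the build in the submitters' processing notes. The sources used here name no aligner and no rule for reads that match several rows. Order and host genes come from GRCm38.p6 and GENCODE M21, another build, so no coordinates are given. All 12 sample columns were used.

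Rows averaging 1 RPM or more were tested with limma 3.58.1 (R 4.3.3, abundance trend, two-sided, Benjamini-Hochberg) on log2(RPM + 1). The arm ratio was fitted alike over 142 stems, a mean of 1 RPM in each arm. DESeq2 1.42.0 and the quasi-likelihood test of edgeR 4.0.16 with TMM used the recovered reads. Other settings were the pseudocount, filter, scaling, trend, replicate block, number sets and libraries left out. Named were the 15 highest member rows, any with an unadjusted p under 0.05 and a mean of at least 10 RPM, and their other arms. The members and lists were chosen with earlier results of these data known. No score over the members was tested.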

Additional observations from a re-analysis of the deposited data

Results flagged for a closer look

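The 21 members named by rule with any read, and 5 summed values (the cluster's share, the 3 group sums and the number of members above 0), were searched in each genotype for a library far from the other 5, by Dixon's test at 95%, which flags about 1 in 20 groups by chance. Of 46 groups with 2 or more libraries above 0, 5 had one, against 2.3 by chance, and skewed low counts can be flagged more often than that. No explanation was tested. db/db 6, the shallowest library, had 402 RPM of miR-127-3p (next 219) and 43.6 RPM of miR-300-3p (next 5.53). db/db 1 had 107 RPM of miR-329-5p (next 33.2) and db/db 2 had 16.6 RPM of miR-379-3p (next 2.17). WT 1 had 47.3 RPM of miR-154-5p (next 12.7). In 4 further groups 1 library alone was above 0, which the test flags by construction: WT 6 for miR-337-3p at 4.54 RPM, db/db 4 for miR-433-5p at 3.88 RPM, and WT 3 and db/db 5 for miR-154-3p at 13.7 and 4.34 RPM.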

How the results depend on the processing

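The count of all rows called by limma, 1, was 0 with a pseudocount of 0.1 or 10 RPM, with no filter, with a mean of at least 10 RPM, with no trend and without WT 4 and db/db 6. It was 2 after median-of-ratios scaling, 10 with the number sets as a factor, 3 by edgeR and 13 by DESeq2. With a replicate block it was 9, and no member was called: miR-434-3p and miR-434-5p had adjusted p of 0.0717 each, and the miR-434 arm ratio 0.144. After the genotype mean of each row was subtracted, same-numbered samples of the 2 genotypes correlated at -0.05 to 0.12. By that measure 2 of 12 libraries correlated best with their own number, so the numbers were not taken to pair the samples. Leaving out 1 library gave 0 to 7 calls over all rows: 7 when db/db 5 was left out, 6 for WT 1, 6 for WT 3 and 3 for db/db 4. Called members numbered 0, but 1 (miR-434-3p) with the number sets as a factor and 0 to 1 with 1 library left out. Arm-ratio calls numbered 0, but 1 (miR-434) with a pseudocount of 10 RPM and 0 to 1 with 1 library left out (miR-23a, not a member, without db/db 5). The causes were not tested. The miR-434 arm ratio was -4.42 to -3.21 with 1 library left out (limma adjusted p 0.0569 to 0.331). The difference in cluster share was 0.0015 to 0.0098 percentage points with 1 library left out and 0.0044 without miR-127-3p.

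Of 204 log2 differences of the 19 tested members named by rule under other settings 188 kept their sign. The 16 others were, without WT 4 and db/db 6, miR-127-3p at -0.15, miR-379-5p at -0.018, miR-411-5p at 0.034, miR-329-5p at -0.52, miR-127-5p at -0.82, miR-409-5p at -0.0012 and miR-379-3p at 0.27. With a pseudocount of 10 RPM miR-127-5p was -0.12. By edgeR miR-127-5p was -0.25, miR-409-3p 0.14, miR-411-3p -0.16 and miR-409-5p -0.15, and by DESeq2 they were -0.22, 0.14, -0.13 and -0.11. Leaving out 1 library turned 21 of 227 values, in 8 members. The ranges were -0.11 to 0.18 for miR-127-3p, -0.039 to 0.23 for miR-379-5p, -0.39 to 0.64 for miR-329-5p, -0.72 to 0.46 for miR-127-5p, -0.75 to 0.34 for miR-409-3p, -0.50 to 0.82 for miR-411-3p, -0.018 to 0.76 for miR-409-5p and -1.04 to 0.079 for miR-379-3p. None of these was called. Depth limits rows under 10 RPM, which rest on a few reads per library.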
